A study of Mus musculus with 12 samples.

Results

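The BMP (bone morphogenetic protein) genes described here are 9 of the 52661 genes counted in the series: the ligands Bmp4 and Bmp2, the inhibitors Smad6 and Bambi, the Id genes Id1, Id2 and Id3, and the homeobox genes Msx1 and Msx2. They were taken by symbol, whatever their values, and each matched 1 Ensembl gene. All 9 passed the filter on low counts, which kept 21053 genes.

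CGR8 is a mouse embryonic stem (ES) cell line, here grown in serum with LIF (leukemia inhibitory factor). All cells, controls included, had been stably transfected with the vector ppy-cagg-ires-puro. Control cells carried it empty, and the other groups carried it with a netrin-1 transgene: the wild-type protein (netrin-1 WT), or a point mutant of its contact with the receptor Unc5b (unc5B MUT) or with neogenin (neo1 MUT). Netrin-1 is a secreted guidance protein, and the study compares cells with and without it and with its mutants. Each group had 3 libraries, numbered 1 to 3 in the titles. The labels do not say whether these came from separate cultures or clones, so the p-values cover only how these libraries vary, possibly for technical reasons.

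Library totals ranged from 22256195 to 59735737 estimated counts. Levels are CPM, counts scaled to 1 library total after TMM (trimmed mean of M-values) normalisation. Ntn1, the netrin-1 gene, was at 0.782 to 15.4 CPM in control libraries and at 34.9 to 322 CPM in transgene libraries. The libraries numbered 3 were the lowest of each group. Transgene libraries numbered 3 were at 34.9 to 76.9 CPM, and those numbered 1 and 2 at 201 to 322 CPM. Pou5f1, a core pluripotency gene, was at 969 to 1487 CPM in all 12 libraries. Sox2 was at 234 to 739 CPM, Nanog at 105 to 441, Zfp42 at 237 to 736 and Esrrb at 220 to 398. Klf4 was at 39.3 to 175 CPM, Tdgf1 at 179 to 608 and Utf1 at 190 to 336. With the replicate number in the fit, 1 of these 8 ES cell markers was called higher in netrin-1 WT than in control. Of all genes, 3.5% were called there, and none of the 8 was called without the replicate number. The defining trophectoderm markers Cdx2 and Elf5, the mesoderm markers T and Mixl1 and the fibroblast collagen Col3a1 stayed under 1 CPM, and the fibroblast collagen Col1a1 was at 1.07 to 5.36 CPM. Other genes on these lists were higher: Krt8 reached 61.2 CPM, Tfap2c 50.05, Gata3 22.2, Eomes 17.5 and Thy1 11.5, and Vim was at 94.9 to 317 CPM. The summed level of the 10 trophectoderm markers was 68.7 to 113 CPM in control, 53.2 to 116 in netrin-1 WT, 55.8 to 84.4 in unc5B MUT and 47.3 to 70.2 in neo1 MUT. That of the 10 fibroblast markers was 231 to 250 CPM in control, 169 to 287 in netrin-1 WT, 238 to 332 in unc5B MUT and 106 to 184 in neo1 MUT, and that of the 7 mesoderm markers was 4.40 to 20.5 CPM over all libraries. With the replicate number in the fit, 5.26% of all genes were called in neo1 MUT against control, and 0.128% without it. With it, 2 of 5 fibroblast markers tested (Vim and Thy1) and 2 of 9 trophectoderm markers (Krt8 and Ascl2) fell there. Also with it, 1 trophectoderm marker rose in netrin-1 WT against control and 1 was lower in neo1 MUT than in netrin-1 WT. In neo1 MUT 2 fibroblast markers were lower than in unc5B MUT. Of all genes, 3.5%, 1.99% and 4.87% were called in these comparisons, in that order. None of these markers was called without it. Their part in the results was not tested. The 4 libraries numbered 3 stood apart: with the group in the model, 12963 of 21053 genes (61.6%) differed between them and the other 8. What a replicate number stands for is not given in the labels. A difference was called at a Benjamini-Hochberg adjusted p under 0.05 over all genes tested with edgeR's quasi-likelihood test. Each comparison was fitted without the replicate number and with it as a block, and both are given where the call differs.

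BMP ligands bind pairs of type I and type II serine/threonine kinase receptors, which phosphorylate Smad1, Smad5 and Smad9. These join Smad4 in the nucleus and switch on direct targets, among them the Id genes and the pathway's own inhibitors. In mouse ES cells kept in LIF, BMP signals from serum are known to raise Id proteins, which bind E proteins and hold back neural differentiation. In the early embryo BMP2 is a product of extraembryonic endoderm, and BMP4 of the epiblast and extraembryonic ectoderm.

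The stretches of 250 bases before the transcription starts of 2 members, from RefSeq, are shown to set a ligand beside a feedback inhibitor. Of the 8 members looked for, 6 had an entry in the table (GRCm38.p6), and neither stretch printed overlaps an exon annotated in GENCODE M21. The Bmp4 stretch is chr14:46390670-46390919 and the Smad6 stretch chr9:64022060-64022309, both on the minus strand. Capitals mark GGGCGG, a GC box, on either strand (CCGCCC on the other).
Bmp4: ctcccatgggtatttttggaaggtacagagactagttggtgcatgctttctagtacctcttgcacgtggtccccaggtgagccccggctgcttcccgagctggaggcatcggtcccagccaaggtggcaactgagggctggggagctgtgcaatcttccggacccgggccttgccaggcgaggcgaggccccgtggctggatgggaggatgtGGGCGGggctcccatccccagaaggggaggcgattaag
Smad6: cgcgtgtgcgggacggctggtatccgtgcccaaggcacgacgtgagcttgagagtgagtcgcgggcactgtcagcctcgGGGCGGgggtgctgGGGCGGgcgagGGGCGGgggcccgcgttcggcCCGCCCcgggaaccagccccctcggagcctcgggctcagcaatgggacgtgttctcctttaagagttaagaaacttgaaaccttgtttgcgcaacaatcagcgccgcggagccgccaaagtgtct
The Bmp4 stretch held 1 GC box and the Smad6 stretch 4, and 32.7% of 32851 promoter stretches of this length held at least 1. The Bmp4 stretch was 63.2% GC and the Smad6 stretch 66.8%, beside a median of 52.4% over all promoters. Neither held CAGAC or its reverse complement GTCTG, a short Smad-binding sequence present in 42.2% of all stretches, or GGCGCC, its own reverse complement and a GC-rich Smad-binding sequence present in 9.59%. No matches overlapped in these 2 stretches. Of the 6 members with an entry, only Id3 (2 CAGAC matches) and Id2 (1 GGCGCC) held either Smad-binding sequence. The Id2, Id3 and Msx2 stretches lie within the genes as annotated in GENCODE M21 and overlap their exons, so these matches are not upstream of the whole annotated gene. Each of the 6 held at least 1 GC box. A match or its absence describes only these letters.

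Per kilobase of annotated exon, Id1 (mean 15.3 CPM per kb over the 12 libraries) and Bmp4 (13.4) were the most abundant members. Smad6 (1.82), Bambi (1.60), Id3 (0.975), Id2 (0.737) and Msx2 (0.379) followed, and Bmp2 (0.166) and Msx1 (0.158) were lowest. Only between Bmp4 and Smad6 did neighbours in this order not overlap in range: Bmp4 was higher in 12 of 12 libraries. Id1 exceeded Bmp4 in 7 of 12, and Bmp2 exceeded Msx1 in 6 of 12, so these neighbours did not differ beyond their spread.

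**Figure D1:**
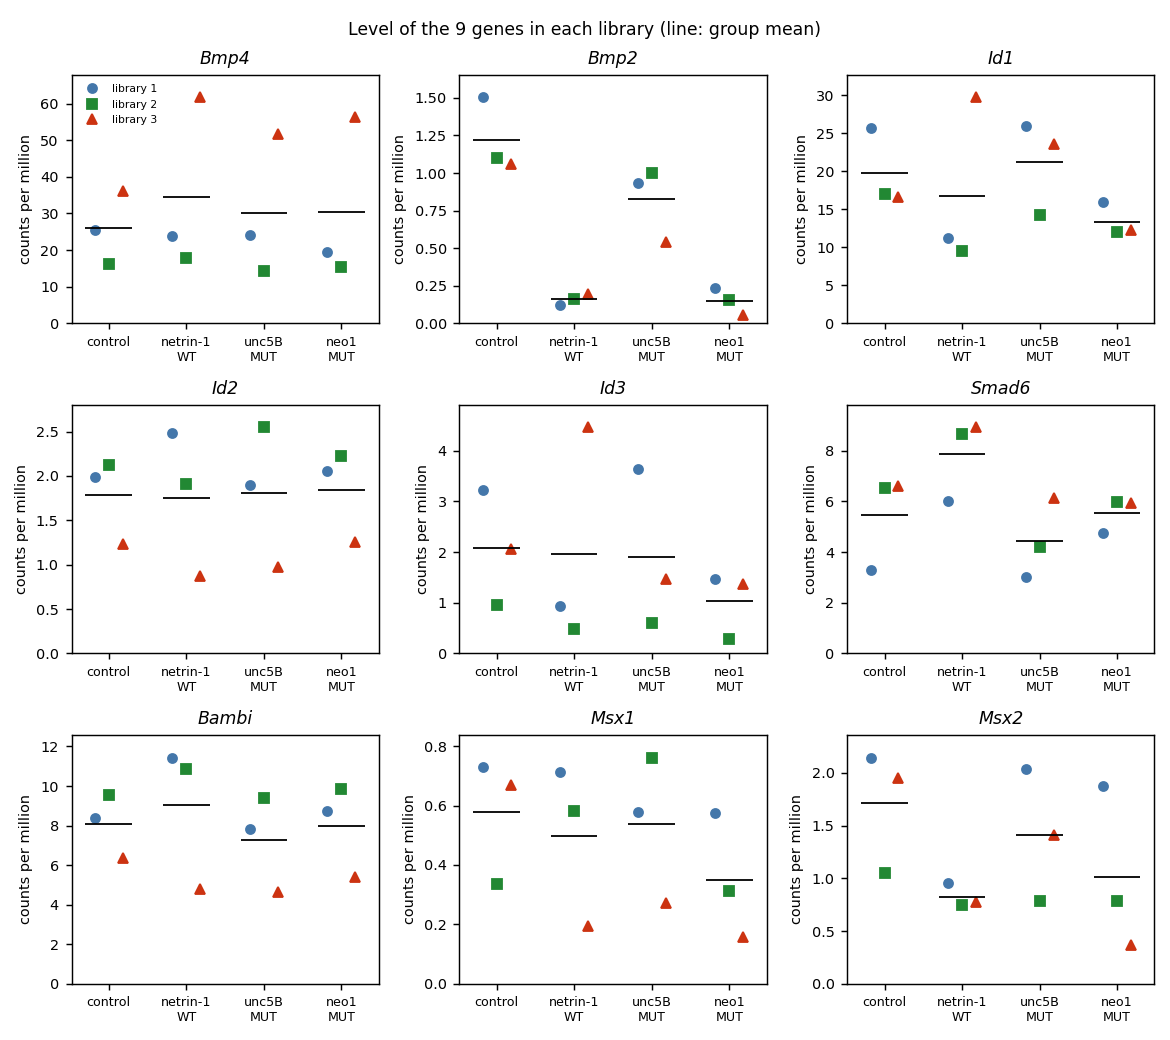
Level of each of the 9 genes (vertical axes, CPM from 0) in the 3 libraries of the 4 groups; shapes and colours mark the replicate number and black lines the group means of n = 3. Bmp2 is at 0.0525 to 0.235 CPM in the netrin-1 WT and neo1 MUT libraries and at 0.543 to 1.5 CPM in the other groups, while Bmp4 is highest in the libraries numbered 3 of every group.

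Bmp2 was the only member whose level was called different between groups. It was about 8 times lower in cells with wild-type or neo1 MUT netrin-1 than in control cells, and was not called different from control in unc5B MUT cells. These calls were made in the fit with the replicate block, and the fit without it made none.

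Bmp2 (ENSMUSG00000027358, chr2:133552159-133562885, plus strand, GRCm38) encodes a secreted BMP ligand. In libraries 1, 2 and 3 it was at 1.5, 1.1 and 1.06 CPM in control cells, from 68, 46 and 19 counts. In netrin-1 WT cells it was at 0.123, 0.159 and 0.194 CPM, from 5, 6 and 4 counts. In unc5B MUT cells it was at 0.933, 1.0 and 0.543 CPM, from 58, 46 and 10 counts. In neo1 MUT cells it was at 0.235, 0.157 and 0.0525 CPM, from 11, 6 and 1 counts. All libraries of netrin-1 WT and neo1 MUT lay below all libraries of control and unc5B MUT, and all unc5B MUT libraries lay below all control libraries. The transcript was thus scarce throughout, and the low groups rest on sums of 15 and 18 counts against 133 in control.

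Against control, Bmp2 was lower, with a log2 fold change of -2.97 ± 0.44 (SE) in netrin-1 WT (edgeR, adjusted p = 0.00494 with the block, 0.0818 without), lower in 3 of 3 numbers. In neo1 MUT the log2 fold change was -2.94 ± 0.43 (adjusted p = 0.00462 with the block, 0.0703 without), lower in 3 of 3 numbers. The ratio of the control mean to the group mean was 7.70 for netrin-1 WT and 8.25 for neo1 MUT. In unc5B MUT the log2 fold change was -0.56 ± 0.36 (adjusted p = 1 with the block), also lower in 3 of 3 numbers. Among all genes tested with the block, 3.5% were called in netrin-1 WT, 5.26% in neo1 MUT and 0.0285% in unc5B MUT, and 1 of 9, 1 of 9 and 0 of 9 members were. Without the block 0 of 9 members were called in the 3 comparisons, against 0.0997% (netrin-1 WT), 0.128% (neo1 MUT) and 0% (unc5B MUT) of all genes; at an unadjusted p under 0.05 there were 1, 1 and 0 members, against 5.79%, 7.26% and 1.13% of all genes. The calls in netrin-1 WT and neo1 MUT stood when each of the 6 libraries compared was left out of the fit with the block, with adjusted p-values up to 0.0427 and 0.0320.

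Between the transgenes, Bmp2 was higher in unc5B MUT than in netrin-1 WT by a log2 fold change of 2.41 ± 0.44 (edgeR, adjusted p = 0.0245 with the block, 0.308 without). It was lower in neo1 MUT than in unc5B MUT, by -2.38 ± 0.43 (adjusted p = 0.0138 with the block, 0.162 without). In neo1 MUT against netrin-1 WT the log2 fold change was 0.03 ± 0.48 (adjusted p = 0.990 with the block). The approximate 95% interval of that difference ran from -0.90 to 0.97 on the log2 scale, so like levels are not shown. The background of called genes with the block was 1.97%, 4.87% and 1.99% in these comparisons, and without it, where 0 of 9 members were called, 0%, 0.133% and 0.076%. At an unadjusted p under 0.05 without the block there were 2, 1 and 0 members, against 5.03%, 6.85% and 4.82% of all genes. The call between unc5B MUT and netrin-1 WT was lost without library 1 or 2 of netrin-1 WT or any 1 of the 3 unc5B MUT libraries (adjusted p = 0.0608 to 0.155), with log2 fold changes of 2.07 to 2.54 in those fits. That between neo1 MUT and unc5B MUT was lost without unc5B MUT library 1 or 2 or neo1 MUT library 2 (0.0682 to 0.0898), with log2 fold changes of -2.44 to -2.19. The authors' deposited table gives Bmp2 adjusted p-values of 0.00120 and 0.00202 for netrin-1 WT and neo1 MUT against control, 0.00827 for unc5B MUT against netrin-1 WT and 0.00662 for neo1 MUT against unc5B MUT, and none under 0.05 for the other 8 members. That table calls 4.42% and 5.52% of its genes in the first pair of comparisons, 3.07% and 6.36% in the second, 0.0491% for unc5B MUT against control and 2.19% for neo1 MUT against netrin-1 WT.

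DESeq2 without the block called Bmp2 and no other member in the same 4 comparisons, with 1.71%, 2.31%, 0.966% and 2.06% of all genes called in that order. So did edgeR without the block when the 4 libraries numbered 3 were left out (adjusted p = 0.00894, 0.0181, 0.0226 and 0.0321), with 4.22%, 2.76%, 2.03% and 2.32% called.

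**Figure D2:**
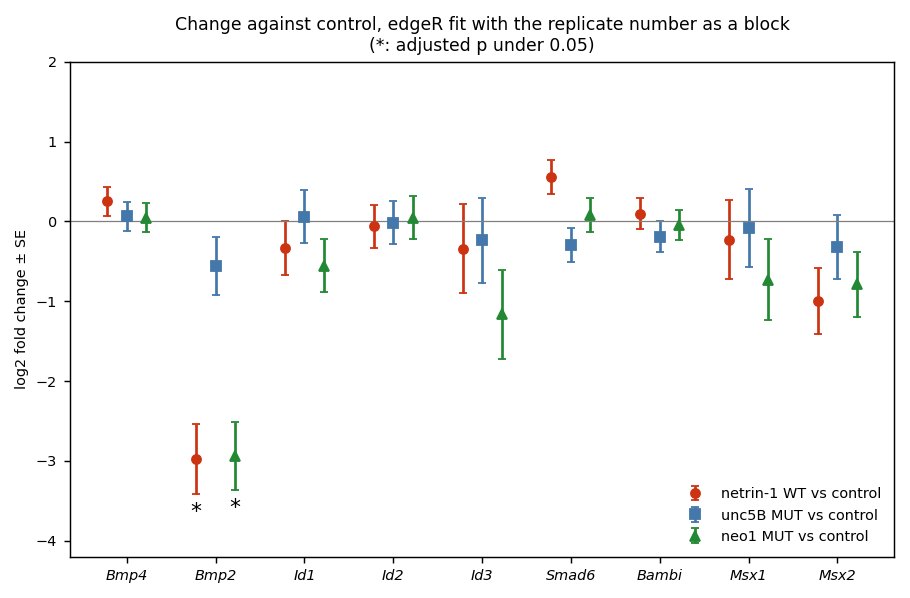
Log2 fold change against control (vertical axis) of the 9 genes in the 3 transgene groups, from the edgeR fit with the replicate block; bars are ± 1 SE, n = 3 libraries a group, and asterisks mark an adjusted p under 0.05. Bmp2 in netrin-1 WT (-2.97) and neo1 MUT (-2.94) is called; the other members lie between -1.16 and 0.56.

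Bmp4 (ENSMUSG00000021835, chr14:46383520-46390669, minus strand), the ligand with the higher level, differed by replicate number and was called in no comparison of groups. In libraries 1, 2 and 3 it was at 25.4, 16.2 and 36.1 CPM in the control libraries, 23.9, 17.8 and 61.8 in those of netrin-1 WT, 24.1, 14.4 and 51.7 in those of unc5B MUT and 19.5, 15.3 and 56.3 in those of neo1 MUT. The library numbered 3 was the highest of each group, and the groups overlapped. With the block, the log2 fold change against control was 0.25 ± 0.18 in netrin-1 WT, 0.07 ± 0.18 in unc5B MUT and 0.04 ± 0.18 in neo1 MUT (adjusted p = 0.513, 1.0 and 0.928). Across numbers, Bmp4 was higher in the libraries numbered 3 by a log2 fold change of 1.39 ± 0.19 (adjusted p = 5.06e-05), with 36.1 to 61.8 CPM there and 14.4 to 25.4 CPM in the other 8.

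Smad6 (ENSMUSG00000036867, chr9:63953076-64022059, minus strand) encodes an inhibitory Smad that blocks BMP receptors. It was at 3.3, 6.5 and 6.59 CPM in the control libraries, 6.0, 8.65 and 8.91 in those of netrin-1 WT, 3.01, 4.18 and 6.14 in those of unc5B MUT and 4.74, 5.99 and 5.93 in those of neo1 MUT. Within each number netrin-1 WT was the highest group, and the control and netrin-1 WT ranges overlapped. Against control the log2 fold change with the block was 0.56 ± 0.21 in netrin-1 WT (adjusted p = 0.189), -0.30 ± 0.21 in unc5B MUT (1.0) and 0.09 ± 0.21 in neo1 MUT (0.868). For unc5B MUT against netrin-1 WT it was -0.86 ± 0.21 (edgeR, adjusted p = 0.0704), the closest of the members other than Bmp2 to the threshold. DESeq2 with the same block called it (adjusted p = 0.00139, with 8.76% of all genes called), and so did edgeR without netrin-1 WT library 3 (0.0419). The share of all genes called in that last fit is not given here.

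Bambi (ENSMUSG00000024232), a pseudoreceptor without a kinase domain that dampens BMP and TGF-beta receptors, was at 8.37, 9.54 and 6.37 CPM in control and at 11.4, 10.8 and 4.80 in netrin-1 WT. In unc5B MUT it was at 7.85, 9.41 and 4.62 CPM, and in neo1 MUT at 8.72, 9.83 and 5.40. The groups overlapped, and the library numbered 3 was the lowest of each. Against control the log2 fold changes with the block were 0.10 ± 0.19, -0.19 ± 0.19 and -0.05 ± 0.19 for netrin-1 WT, then unc5B MUT, then neo1 MUT. Across numbers it was lower in those numbered 3, with a log2 fold change of -0.84 ± 0.15 (adjusted p = 0.000571).

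Id1 (ENSMUSG00000042745, chr2:152736251-152737410, plus strand) encodes the Id protein best known as a BMP target in ES cells. It was at 25.6, 17.0 and 16.6 CPM in control cells. In netrin-1 WT it was at 11.2 and 9.47 CPM in libraries 1 and 2 and at 29.7 in library 3. In unc5B MUT it was at 25.9, 14.3 and 23.6 CPM, and in neo1 MUT at 15.9, 12 and 12.2. All neo1 MUT libraries lay below all control libraries, whereas the netrin-1 WT libraries were both the lowest 2 and the highest of the 12. Differences in log2 CPM between netrin-1 WT and the control library of the same number were -1.19, -0.84 and 0.84.

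With all libraries and the block, the Id1 log2 fold change against control was -0.33 ± 0.34 in netrin-1 WT, 0.06 ± 0.33 in unc5B MUT and -0.56 ± 0.33 in neo1 MUT (adjusted p = 0.664, 1.0 and 0.388). Without netrin-1 WT library 3, Id1 was lower in netrin-1 WT than in control, with a log2 fold change of -0.94 (adjusted p = 0.0222) and higher in unc5B MUT than in netrin-1 WT by 1.04 (0.0187). Without all 4 libraries numbered 3 and with no block, the same contrasts were -1.05 (adjusted p = 0.10) and 0.96 (0.146). The change of the difference from control between number 3 and the other numbers was 1.88 ± 0.56 on the log2 scale (edgeR interaction term, adjusted p = 0.176), a test added after the data were seen. For that contrast 0 of 9 members passed the interaction test, against 0.019% of all genes. The Id1 calls thus appeared only when that 1 library was left out of the fit with the block. The share of all genes called in that fit is not given here. The difference of number 3 from the other numbers did not pass the threshold over all genes.

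**Figure D3:**
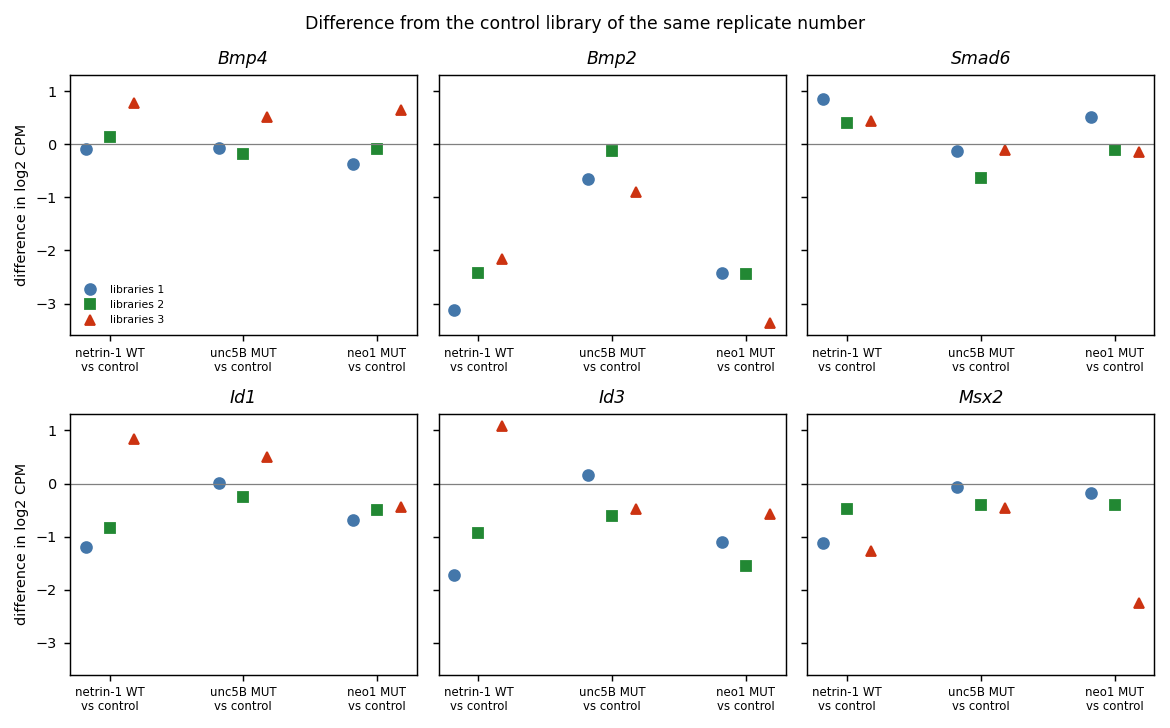
Difference in log2 CPM between each transgene library and the control library of the same replicate number (vertical axis) for 6 of the genes; each point is 1 library pair, so there is no error bar. Bmp2 is below 0 at every point, while Id1 and Id3 in netrin-1 WT are below 0 for numbers 1 and 2 and above 0 for number 3.

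Id3 (ENSMUSG00000007872, chr4:136143497-136145755, plus strand), a second Id protein, was at 3.23, 0.957 and 2.07 CPM in control and at 0.935, 0.477 and 4.46 in netrin-1 WT. In unc5B MUT it was at 3.64, 0.610 and 1.47 CPM, and in neo1 MUT at 1.47, 0.288 and 1.36. Library 2 was the lowest of each group, all groups overlapped, and netrin-1 WT showed the same split as Id1, with within-number differences of -1.73, -0.93 and 1.09. In neo1 MUT, Id3 was below control in 3 of 3 numbers, with a log2 fold change of -1.16 ± 0.56 (adjusted p = 0.274 with the block). In netrin-1 WT and unc5B MUT the log2 fold changes were -0.34 ± 0.56 and -0.24 ± 0.53. After each number's mean was subtracted, Id1 and Id3 were the pair of members most alike over the 12 libraries (Pearson r = 0.83, Spearman rho = 0.81), a description of libraries that share groups and depth.

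Id2 (ENSMUSG00000020644, chr12:25093799-25097140, minus strand), the third Id protein in the set, was at 1.99, 2.13 and 1.23 CPM in the control libraries, 2.48, 1.91 and 0.872 in those of netrin-1 WT, 1.90, 2.55 and 0.978 in those of unc5B MUT and 2.05, 2.22 and 1.26 in those of neo1 MUT. The groups overlapped almost fully, and the library numbered 3 was the lowest of each. Against control the log2 fold changes with the block were -0.06 ± 0.27, -0.01 ± 0.27 and 0.05 ± 0.27 for netrin-1 WT, then unc5B MUT, then neo1 MUT. Id2 was lower in the libraries numbered 3, with a log2 fold change of -0.99 ± 0.21 (adjusted p = 0.00163). With Bmp4 and Bambi this makes 3 of 9 members called by number, 1 higher and 2 lower, against 61.6% of all genes.

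The homeobox genes Msx1 and Msx2 encode transcription repressors that are BMP targets in many embryonic tissues. Msx2 (ENSMUSG00000021469, chr13:53466884-53473074, minus strand) was at 2.15, 1.05 and 1.95 CPM in the control libraries, 0.960, 0.743 and 0.775 in those of netrin-1 WT, 2.04, 0.784 and 1.41 in those of unc5B MUT and 1.88, 0.785 and 0.367 in those of neo1 MUT. All netrin-1 WT libraries lay below all control libraries, and the other 2 groups overlapped control. The log2 fold change against control with the block was -1.0 ± 0.41 in netrin-1 WT (adjusted p = 0.229), -0.32 ± 0.40 in unc5B MUT (1.0) and -0.79 ± 0.41 in neo1 MUT (0.311).

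Msx1 (ENSMUSG00000048450, chr5:37820485-37824583, minus strand) had between 3 and 36 counts a library. It was at 0.730, 0.335 and 0.670 CPM in the control libraries, 0.714, 0.583 and 0.194 in those of netrin-1 WT, 0.579, 0.762 and 0.272 in those of unc5B MUT and 0.577, 0.314 and 0.157 in those of neo1 MUT. The groups overlapped. Its log2 fold changes against control were -0.23 ± 0.49, -0.08 ± 0.49 and -0.73 ± 0.51 with the block, and no difference was detectable at this depth.

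Counted by ranges, 2 of 9 members did not overlap between netrin-1 WT and control (Bmp2 and Msx2), 1 between unc5B MUT and control (Bmp2) and 2 between neo1 MUT and control (Bmp2 and Id1), all lower than control. Over all genes tested, 9.23%, 4.38% and 11.4% did not overlap in these comparisons. Between transgenes 1 of 9 did not overlap in each: Bmp2 in unc5B MUT against netrin-1 WT and neo1 MUT against unc5B MUT (background 9.42% and 11.8%), and Smad6 in neo1 MUT against netrin-1 WT (8.28%). The median log2 fold change of the 9 members with the block was -0.23, -0.19 and -0.56 for netrin-1 WT, then unc5B MUT, then neo1 MUT against control, beside 0.01, 0.02 and 0.02 over all genes. The 3 comparisons share the control libraries.

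The wider pathway was read from lists of the other ligands, receptors, co-receptors, Smads, inhibitors, responsive genes and Id partners. Of the 65 genes listed 49 were tested. Without the block edgeR called none of them. At an unadjusted p under 0.05 there were 1 to 5 in a comparison, beside 1.13% to 7.26% of all genes. DESeq2 without the block called 0 to 4, beside 0.966% to 2.31% of all genes in the 4 comparisons where it called Bmp2. That range includes 2 (Hey1 and Smad9) in neo1 MUT against netrin-1 WT, where the share of all genes is not given here. With the block edgeR called 6 of 49 in netrin-1 WT and 3 in neo1 MUT against control, beside 3.5% and 5.26% of all genes. It called 3 in unc5B MUT against netrin-1 WT and 2 in neo1 MUT against netrin-1 WT, beside 1.97% and 1.99%. In neo1 MUT against unc5B MUT it called 2, beside 4.87%. DESeq2 with the block called 8, 8, 7, 4 and 5 in the same order, beside 10.1%, 12.4%, 8.76%, 6.24% and 11.7% of all genes. The counts that follow are from edgeR with the block. Among the other ligands, 6 of 13 passed the filter, with Bmp6, Bmp7 and Bmp8a the highest per kilobase (1.85, 1.39 and 1.11 CPM per kb). Bmp6, a BMP ligand, was at 14.2, 10.4 and 16.8 CPM in the control libraries, 4.31, 5.46 and 3.68 in those of netrin-1 WT, 6.37, 5.16 and 9.94 in those of unc5B MUT and 3.72, 4.18 and 2.57 in those of neo1 MUT. All libraries of each transgene group lay below all control libraries. It was the 1 gene of the list that fell, by 1.59 ± 0.31 in netrin-1 WT (adjusted p = 0.0202 with the block, 0.141 without) and by 1.95 ± 0.31 in neo1 MUT (0.00801, 0.0646 without) on the log2 scale. In unc5B MUT the log2 fold change was -0.96 ± 0.30 (adjusted p = 0.809).

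No receptor was called by edgeR in any of the 6 comparisons (6 of 7 tested). The type I receptor Bmpr1a was at 39.3 to 99.7 CPM, the type II receptor Acvr2b at 26.0 to 40.3 and Acvr2a at 7.55 to 15.3. DESeq2 with the block called Acvr2b in unc5B MUT against netrin-1 WT and in neo1 MUT against unc5B MUT. Of the co-receptors, 0 of 6 were called; endoglin (Eng) and neogenin (Neo1), which binds both netrin-1 and the BMP co-receptors of the RGM family, were the highest per kilobase (12.2 and 7.43 CPM per kb). At an unadjusted p under 0.05 with the block, 0 to 2 receptors and 0 or 1 co-receptors were reached in a comparison. Shares of all genes at an unadjusted p are given here only for the edgeR fit without the block. The 3 E proteins that Id proteins bind, Tcf3, Tcf4 and Tcf12, were not called by edgeR either, with 0 or 1 at an unadjusted p under 0.05; DESeq2 with the block called Tcf12 in neo1 MUT against control and against unc5B MUT.

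Of the 4 Smads of the BMP branch, Smad4, Smad5 and Smad1 were the most abundant per kilobase (21.5, 5.13 and 3.73 CPM per kb) and were not called. Smad9, the scarcest receptor-activated Smad of the branch, was at 1.02, 1.46 and 0.558 CPM in the control libraries, 2.95, 2.89 and 3.25 in those of netrin-1 WT, 1.33, 1.31 and 0.869 in those of unc5B MUT and 0.897, 0.863 and 0.367 in those of neo1 MUT. All netrin-1 WT libraries lay above all others. It rose by 1.64 ± 0.34 in netrin-1 WT against control on the log2 scale (adjusted p = 0.0257 with the block, 0.363 without). In neo1 MUT against netrin-1 WT the log2 fold change was -2.14 ± 0.35 (0.0118, 0.218 without). The first call stood in 1 of 6 and the second in 4 of 6 fits that left out 1 library.

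Of 18 inhibitors and modulators, 14 were tested, and Fkbp1a, Ski and Twsg1 were the highest per kilobase (54.0, 29.6 and 18.1 CPM per kb). In netrin-1 WT against control 2 rose and 1 fell, in unc5B MUT none was called, and in neo1 MUT 1 fell. Bmper, a secreted BMP-binding modulator, was at 8.61, 5.91 and 9.55 CPM in the control libraries, 0.492, 0.186 and 2.18 in those of netrin-1 WT, 5.68, 2.24 and 10.1 in those of unc5B MUT and 1.20, 0.628 and 0.525 in those of neo1 MUT. Netrin-1 WT and neo1 MUT lay below control and unc5B MUT in every library, as for Bmp2. Bmper fell by 3.49 ± 0.57 in netrin-1 WT and by 3.25 ± 0.55 in neo1 MUT on the log2 scale (adjusted p = 0.00824 and 0.00988 with the block, 0.345 and 0.235 without).

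In unc5B MUT, Bmper was higher than in netrin-1 WT by 2.83 ± 0.55 (adjusted p = 0.0318 with the block, 0.677 without), and neo1 MUT against unc5B MUT gave -2.58 ± 0.54 (0.0257, 0.357 without). The genes that rose in netrin-1 WT were Fstl1, a secreted follistatin-related glycoprotein, and Skil, which encodes the Smad corepressor SnoN. Fstl1 was at 54.3 to 66.6 CPM in control and 90.5 to 121 CPM in netrin-1 WT (log2 fold change 0.75 ± 0.13, adjusted p = 0.0102 with the block, 0.436 without). Skil was at 119, 156 and 42.7 CPM in control and 281, 298 and 47.8 in netrin-1 WT (0.81 ± 0.18, 0.0382, 1.0 without). Both were lower in unc5B MUT than in netrin-1 WT, by -0.57 ± 0.13 and -0.90 ± 0.18 (adjusted p = 0.0492 and 0.0355 with the block, 0.930 and 1.0 without).

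Of 14 other BMP-responsive genes, 10 were tested, and Dusp9, Tbx3 and Zfp423 were the highest per kilobase (75.0, 17.9 and 8.42 CPM per kb). Hey1, a Hairy-related transcription repressor that is also a Notch target, was at 1.1 to 1.51 CPM in control and 3.57 to 4.36 CPM in netrin-1 WT, without overlap, and rose there by 1.66 ± 0.31 on the log2 scale (adjusted p = 0.0172 with the block, 0.141 without). Tbx3, a T-box factor of naive ES cells, was at 107 to 153 CPM in control and 49.4 to 87.0 CPM in neo1 MUT. It fell there by 1.09 ± 0.23 (adjusted p = 0.0238 with the block, 0.564 without), and neo1 MUT against unc5B MUT gave -1.07 ± 0.23 (0.0278, 0.610 without). Gata3 was lower in neo1 MUT than in netrin-1 WT, by -1.63 ± 0.32 (0.0278, 1.0 without). In unc5B MUT against control 0 of the 49 genes were called by edgeR or DESeq2 with the block. Of all genes, edgeR called 0.0285% there and DESeq2 0.607%, at the adjusted threshold. At an unadjusted p under 0.05 there were 7 of the 49 in each, and the share of all genes at that p is not given here.

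Among these pathway genes the calls in fits that left out 1 library stood in 6 of 6 for Bmp6 in neo1 MUT against control, 5 of 6 for Bmper there, and 4 of 6 for Bmp6, Bmper and Fstl1 in netrin-1 WT against control. They stood in 2 of 6 for Hey1 and Skil in netrin-1 WT, in 1 of 6 for Tbx3 and Gata3 and for Fstl1, Skil and Bmper in unc5B MUT against netrin-1 WT, and in 0 of 6 for Bmper in neo1 MUT against unc5B MUT. For Bmp6 in netrin-1 WT leaving out control library 1 or netrin-1 WT library 1 ended the call, and for Bmper netrin-1 WT library 1 or 2 did so (adjusted p up to 0.0978 and 0.0564). For Bmper in neo1 MUT it was lost without control library 2 (0.0507), and for Fstl1 without control library 2 or netrin-1 WT library 1 (up to 0.0654).

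**Figure D4:**
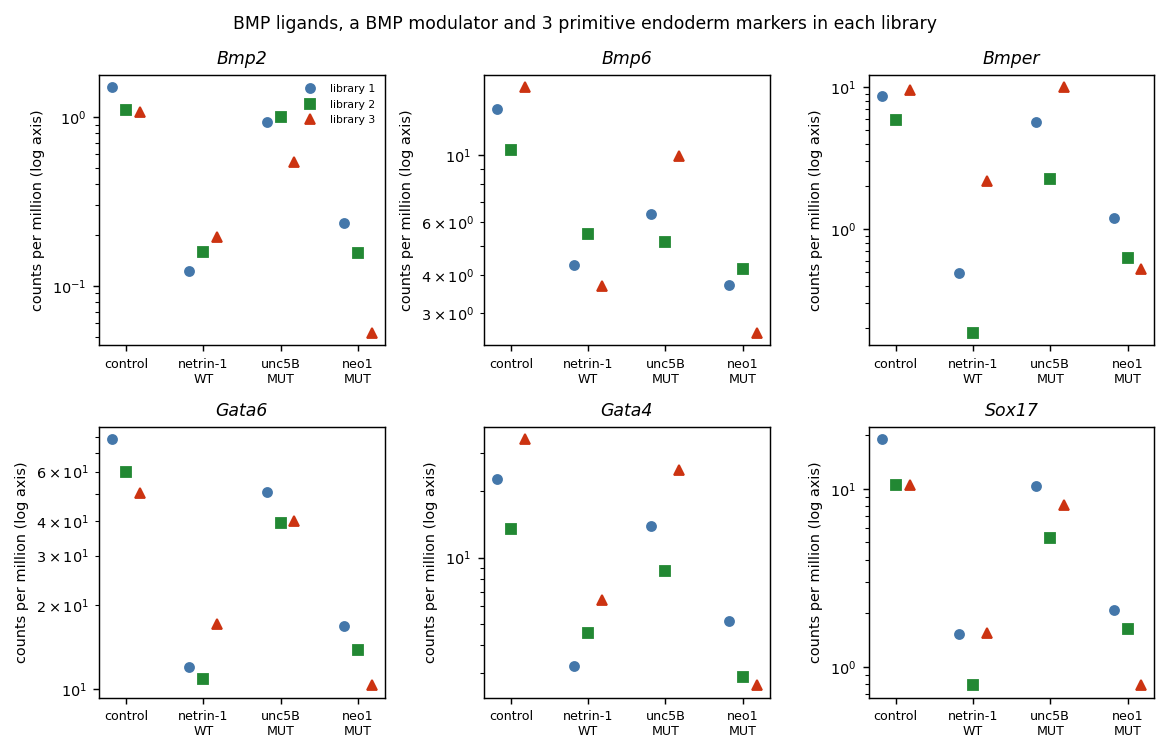
Level in each library (CPM, log axes) of Bmp2, Bmp6 and Bmper and of the primitive endoderm markers Gata6, Gata4 and Sox17; shapes and colours mark the replicate number, n = 3 libraries a group. In all 6 genes every netrin-1 WT and neo1 MUT library lies below every control library. In unc5B MUT Bmp2, Bmp6 and Sox17 also lie below control, at 0.543 to 1.0, 5.16 to 9.94 and 5.27 to 10.4 CPM. The defining marker Hnf4a is not shown, and its ranges in control (8.10 to 25.9 CPM) and netrin-1 WT (3.63 to 15.0) overlap.

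Genes that mark primitive endoderm, an extraembryonic lineage whose cells can arise in ES cultures, moved with Bmp2. The summed level of the 18 markers was 1993 to 4696 CPM in control, 542 to 1330 in netrin-1 WT, 1341 to 3479 in unc5B MUT and 563 to 938 in neo1 MUT. With the block, 15 of the 16 markers tested fell in netrin-1 WT and 16 of 16 in neo1 MUT against control. In unc5B MUT 0 of 16 were called against control. There 9 of 16 had an unadjusted p under 0.05, and the share of all genes at that p is not given here. Of all genes, 3.5%, 5.26% and 0.0285% were called at the adjusted threshold in netrin-1 WT, neo1 MUT and unc5B MUT against control. The median log2 fold changes of the markers were -2.43, -2.39 and -0.57 in that order, beside 0.01, 0.02 and 0.02 over all genes. In unc5B MUT 13 of 16 were higher than in netrin-1 WT, and in neo1 MUT 15 of 16 were lower than in unc5B MUT. Between these transgenes 1.97% and 4.87% of all genes were called. Without the block 5 of 16 fell in netrin-1 WT, 4 in neo1 MUT and 0 in unc5B MUT against control. The shares of all genes called there were 0.0997%, 0.128% and 0%. For unc5B MUT against netrin-1 WT and neo1 MUT against unc5B MUT 0 of 16 were called, beside 0% and 0.133% of all genes. At an unadjusted p under 0.05 there were 14 of 16 in each, beside 5.03% and 6.85% of all genes.

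The defining markers Gata4, Sox17 and Hnf4a were above 0 in every library, while of the 18 listed Ttr was at 0 in all netrin-1 WT libraries and Afp in some libraries of each group. Gata4 was at 13.5 to 34.6 CPM in control and 3.20 to 6.44 in netrin-1 WT, Sox17 at 10.4 to 19.0 and 0.796 to 1.55, and Hnf4a at 8.10 to 25.9 and 3.63 to 15.0. Hnf4a thus overlapped between control and netrin-1 WT. It was at 8.58 to 28.6 CPM in unc5B MUT and at 5.04 to 7.03 in neo1 MUT. The part of endoderm-like cells in the Bmp2, Bmp6 and Bmper differences was not tested, and in these bulk samples fewer cells of a type and less RNA per cell cannot be told apart. The list was chosen with earlier results on these libraries known.

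The genes with the pattern most like Bmp2, Bmp4 and Id1 were sought among 10224 other genes with a mean of at least 5 CPM, by Pearson r of log2 CPM over the 12 libraries after each number's mean was subtracted. For Bmp2 they were Sparc, Pdgfra, Emp2, Fbp2 and Gata6 (r = 0.986 to 0.993), a search added after the data were seen; Sparc, Pdgfra and Gata6 are on the list of primitive endoderm markers. For Id1 they were Smg8, Mrpl44, Jagn1, Mrpl12 and Anxa8 (0.955 to 0.967). For Bmp4 they were Amdhd2, Zfp384, Spindoc, Rpap1 and Arid5b (0.919 to 0.982). These values describe libraries that share groups and depth. Without the subtraction Spindoc and Arid5b had r = -0.52 and -0.58 with Bmp4, so for them the likeness holds only within numbers. With the subtraction, the most alike members next to Id1 and Id3 were Bmp2 and Msx2 (Pearson r = 0.80, Spearman rho = 0.80). The most opposed pair was Id1 and Bambi (r = -0.79, rho = -0.90). Id2 also ran against Id1 (r = -0.63) and Id3 (r = -0.55).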

How the data were processed

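Total RNA of 12 libraries, 3 in each of 4 groups taken from the sample titles, was sequenced. The deposited raw table holds the authors' estimated counts for 52661 genes; the program that made them and its use of strand are not given in the sources used here. The authors' deposited table of comparisons gives log2 fold changes and adjusted p-values, per the file headers. The submitters' processing notes name, without roles, STAR 2.5.2b, DESeq2, R 3.3.2, Bowtie2, Bowtie and FastQC 0.11.5 and the builds GRCm38.p5, mm10 and GRCh38.

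Estimated counts were rounded and analysed in R 4.3.3 with edgeR 4.0.16 (limma 3.58.1): filterByExpr, TMM, all libraries in 1 fit with the group as the term, quasi-likelihood F-test, Benjamini-Hochberg adjustment over 21053 genes. The paired fit added the replicate number as a block. The numbers come from the titles: deviations from group means correlated at 0.58 to 0.88 within numbers, above the minimum of 0.1, but also at 0.49 to 0.76 between numbers 1 and 2, and at -0.83 to -0.60 between number 3 and another. Alternatives were DESeq2 1.42.0, RLE size factors, no filter, the libraries numbered 3 left out, and each library left out. Within-number differences used log2 CPM with a prior count of 2. The tests were run on simulated data in which changes were planted only in well-counted genes. Those runs do not cover genes as scarce as Bmp2. GENCODE M21 (GRCm38) gave positions and exon lengths for 52566 genes, and may not be the authors' annotation. An exact permutation test of 3 against 3 libraries cannot go below 0.1, so none was run.

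All 9 members were named, with the pathway-list genes called in either fit (up to 4 a list and comparison), the 3 most abundant per kilobase of each list, and the 5 genes most like a member. The members and lists were chosen with earlier results of these data known.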

Additional observations from a re-analysis of the deposited data

Results flagged for a closer look

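Bmp2 differed between transgenes in its change from control. With the replicate block, its change from control was higher in unc5B MUT than in netrin-1 WT by 2.41 on the log2 scale (edgeR, adjusted p = 0.0245), and neo1 MUT against unc5B MUT gave -2.38 (adjusted p = 0.0138). Both differences were in the same direction in 3 of 3 numbers, and neither passed the threshold without the block (adjusted p = 0.308 and 0.162). Summed Bmp2 counts were 133 in control, 15 in netrin-1 WT, 114 in unc5B MUT and 18 in neo1 MUT.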

How the results depend on the processing

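Without the replicate block 0 of 9 members were called in each of the 6 comparisons of groups, beside 0% to 0.133% of all genes. With the replicate block, with DESeq2 and without the 4 libraries numbered 3, the count was 1 in each of 4 comparisons, Bmp2 each time: netrin-1 WT and neo1 MUT against control, unc5B MUT against netrin-1 WT, and neo1 MUT against unc5B MUT. Of all genes, 1.97% to 5.26% were called there with the block, 0.966% to 2.31% with DESeq2 and 2.03% to 4.22% without those libraries. In fits with the replicate block that left out 1 library, the count ranged from 1 to 2 for netrin-1 WT against control, from 0 to 3 for unc5B MUT against netrin-1 WT and from 0 to 1 for neo1 MUT against unc5B MUT. The shares of all genes called in those fits are not given here, so these ranges cannot be set beside them. DESeq2 with the replicate block gave 2 for unc5B MUT against netrin-1 WT, Bmp2 and Smad6, beside 8.76% of all genes. The count by replicate number was 3 in all settings but the one without control library 3, which added Msx1. In the edgeR fit with all libraries 61.6% of all genes were called by number.

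The starting values were the members' log2 fold changes in the edgeR fit without the block, where 0 of 9 members were called. Of 352 values under other settings, 286 kept direction and side of the threshold, 12 passed the threshold and 54 changed sign. None of the starting values was called, so keeping the side meant staying uncalled, and no called one could change sign. Without the 4 libraries numbered 3, signs turned for Bmp4 in neo1 MUT, netrin-1 WT and unc5B MUT against control (-0.26, -0.0023 and -0.12), for Id1, Id3 and Msx1 in unc5B MUT (-0.092, 0.015 and 0.31), for Id2 and Msx1 in netrin-1 WT (0.093 and 0.27) and for Bambi in neo1 MUT (0.046). With the block, Id2 in unc5B MUT turned to -0.014. Bmp2 in neo1 MUT against netrin-1 WT was 0.031 with the block, 0.0052 with no filter, 0.10 with DESeq2 and 0.48 without those 4 libraries. Leaving out 1 library at a time, in the fit without the block, moved values against control across 0 as follows. In netrin-1 WT the ranges were -0.32 to 0.73 for Bmp4, -0.94 to 0.046 for Id1, -0.36 to 0.29 for Id2, -1.56 to 0.37 for Id3, -0.050 to 0.46 for Bambi and -0.54 to 0.17 for Msx1. In unc5B MUT they were -0.43 to 0.55 for Bmp4, -0.068 to 0.34 for Id1, -0.30 to 0.31 for Id2, -1.03 to 0.35 for Id3, -0.37 to 0.092 for Bambi, -0.40 to 0.22 for Msx1 and -0.66 to 0.016 for Msx2. In neo1 MUT they were -0.57 to 0.55 for Bmp4, -0.16 to 0.25 for Id2, -0.24 to 0.18 for Smad6 and -0.19 to 0.19 for Bambi. Bmp2 in neo1 MUT against netrin-1 WT ranged from -0.48 to 0.33. The cause was not tested.

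Of 160 values of the called pathway genes under other settings, 85 kept the call and 75 lost it, with 0 changes of sign. Depth limits Bmp2 and Msx1 most, at 1 to 68 and 3 to 36 counts a library.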
